A study of Mus musculus with 9 samples.

Results

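The genes described here carry the cyclic AMP (cAMP) signal from the adenylyl cyclases to the transcription factor CREB, together with the phosphodiesterases that end the signal and the anchoring proteins that place it in the cell. Members were rows of the deposited expression table chosen by gene symbol and level. The symbol begins with Adcy, Pde or Akap followed by a digit, begins with Prkac, Prkar, Creb or Crtc1 to Crtc3, or is Crem. The mean over 9 libraries was at least 1 RPKM (reads scaled per kilobase of gene and per megaread of library). Of 27497 rows in the table, 65 carried such a symbol and 54 reached the level. These 54 rows stand for 53 symbols, because Akap13 is listed under 2 identifiers. The other 11 rows were not tested; Adcy7 lay nearest to the threshold at 0.870 RPKM, and Pde3b at 1.01 RPKM and Pde4c at 1.05 RPKM were the lowest members.

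RNA came from the olfactory bulbs of 9 adult C57/BL6 mice, 6 to 8 weeks old or older, in 3 groups of 3 mice. The control group breathed clean air from an activated carbon filter. The 30 min group was killed straight after 30 min with an odorant mixture in the air. The 120 min group had the same 30 min of odorants and then 90 min without them, in clean air. Polyadenylated RNA was sequenced from paired ends, and the title of the series asks which transcripts respond quickly to natural neuronal activity. The bulbs were taken whole, so fewer cells of a type and less RNA per cell cannot be told apart in any value below.

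Adenylyl cyclases make cAMP when G protein coupled receptors, or calcium through calmodulin, activate them, and phosphodiesterases break it down. Cyclic AMP releases the catalytic subunits of protein kinase A (PKA) from its regulatory subunits, and A-kinase anchoring proteins hold the enzyme at particular sites. Released PKA phosphorylates CREB, which with the CRTC coactivators and the acetyltransferase Crebbp switches on genes that carry the cAMP response element, the immediate-early genes of active neurons among them. Some targets feed back on the pathway: an internal promoter of Crem makes ICER, a short repressor of the same element.

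Across the pathway, no member passed the test in any comparison. In the same libraries 11 of 31 tested CREB targets rose at 30 min. That target list was drawn up from genes known to be induced by cAMP or activity, with earlier results of these data known. With limma and Benjamini-Hochberg adjustment over 12780 genes, 0 of 54 members had an adjusted p under 0.05 at 30 min against clean air, where 0.141% of all genes did. The counts were also 0 of 54 at 120 min against clean air (0.0861% of all genes) and 0 of 54 at 120 min against 30 min (0.0782%). With shares this low, a count of 0 among 54 genes does not set the members apart from other genes. The lowest adjusted p of any member was 0.697, 0.339 and 0.999 in these comparisons in turn. Both comparisons with clean air share the same 3 control mice.

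The cAMP response element is shown first, since it is the sequence on which the pathway ends. Its palindromic form TGACGTCA and its short form TGACG, or CGTCA on the other strand (the short site below), were searched for in RefSeq promoters (GRCm38.p6, 250 bases before to 50 after each start). The full element contains the short site. Of the 53 member symbols, 42 had a promoter in the table. The rest, Crem, Crtc2, Adcy6 and Adcy8 among them, had none and were not searched. Prkar1a was the 1 member of these 42 with the full element (2.38% of 42 members, 2.03% of all 27025 genes in the promoter table). A short site stood in 15 of the 42 members (35.7%) and in 23% of all genes. Members have more promoters per gene in the table, 81 for 42 genes against 32851 for 27025, and per promoter the short site was in 21% of theirs and 20.8% of all. Among 24 tested CREB targets with a promoter, 6 held the full element (25%) and 19 the short site (79.2%), but that list was drawn up from genes known as CREB targets, so its share is not independent evidence. Windows of 30 bases are printed 5′ to 3′ on the gene's strand, with the motif in capitals, for Prkar1a, for both targets that rose and carry the full element (Btg2 and Dusp1), for a short site of Fos, and for short sites of 2 members described below.
Prkar1a, chr11:109650889-109650918, plus strand: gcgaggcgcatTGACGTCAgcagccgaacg
Btg2, chr1:134079303-134079332, minus strand: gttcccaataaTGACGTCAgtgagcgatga
Dusp1, chr17:26508597-26508626, minus strand: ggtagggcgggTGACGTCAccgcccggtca
Fos, chr12:85473812-85473841, plus strand: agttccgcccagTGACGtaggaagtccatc
Prkaca, chr8:83972846-83972875, plus strand: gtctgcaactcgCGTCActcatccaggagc
Akap8l, chr17:32350537-32350566, minus strand: ggattgttgtggCGTCAgacgcgcagagta
A match describes the letters in these windows only, and no match says nothing about binding of CREB elsewhere.

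At the base of the pathway the members differed far more in level than between groups. Mean levels ran from 1.01 to 300.1 RPKM with a median of 12.9, against 9.93 RPKM for all genes tested, and 31 of 54 members lay above that general median. The coefficient of variation over the 9 mice had a median of 21.9% among members and 21.2% among all genes tested. RPKM is scaled by gene length, so levels of different genes can be set side by side only where that length covers the gene. The scaling lengths of Creb1 and Pde3a, given further on, were very short. Those recovered for Crebl2 (167 nt), Akap12 (353 nt), Crem (379 nt) and Pde5a (611 nt) were short too, so their places are uncertain. Each recovered length is the shortest that fits the values, and for most members the length was not recovered. Of the 52 members other than Creb1 and Pde3a, 30 lay above the general median.

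**Figure D1:**
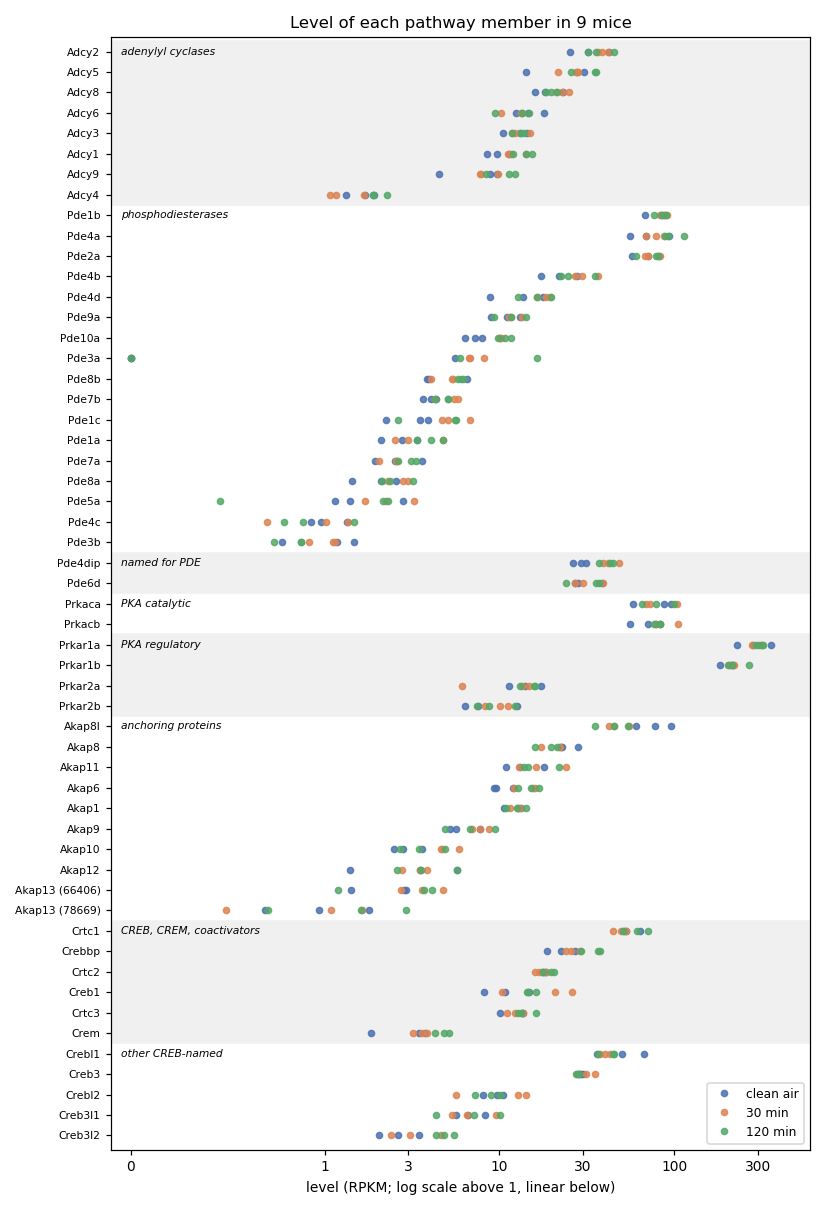
Level of each of the 54 pathway members in RPKM (horizontal axis, logarithmic above 1 and linear below) in each of 9 mice, one point per mouse, coloured by group and ordered by role and mean level. Prkar1a and Prkar1b stand to the right of every other member's mean, and within most members the points of the 3 groups mix. The places of Creb1 and Pde3a rest on very short scaling lengths, and those of Crebl2, Akap12, Crem and Pde5a on short ones.

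Of the 8 cyclases, Adcy2, a form stimulated by G protein beta-gamma subunits, had the highest level. It measured 42.2, 32.2 and 25.4 RPKM in clean air mice 1, 2 and 3, then 41.8, 38.5 and 36.7 RPKM at 30 min and 45.0, 32.0 and 35.5 RPKM at 120 min. The groups overlapped. Adcy2 exceeded Adcy5, the next cyclase and a form inhibited by Gi and by calcium, in 8 of 9 mice, and Adcy5 exceeded the calcium-stimulated Adcy8 in 8 of 9. These 3 cyclases made up 58.3% to 65.7% of the summed cyclase RPKM in single mice. The calcium-stimulated forms Adcy1 and Adcy8 together made up 22.4% to 26.5%.

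Adcy3, the cyclase of odor transduction in the cilia of olfactory sensory neurons, was one of the steadiest members. It read 14.3, 10.4 and 13.1 RPKM in the control mice, 14.9, 11.8 and 12.2 RPKM at 30 min and 13.7, 11.8 and 13.3 RPKM at 120 min. Its log2 difference from clean air was 0.05 at 30 min (95% interval -0.34 to 0.43; limma adjusted p = 0.964) and 0.05 at 120 min (interval -0.33 to 0.43; adjusted p = 0.960), and the 30 min value was -0.04 when libraries were centred on their medians and -0.03 after quantile normalization. The summed level of 5 markers of sensory neuron axons ran from 165 to 286 RPKM in clean air, 241 to 302 RPKM at 30 min and 160 to 314 RPKM at 120 min, all 5 found and none at 0 throughout. Their part in the Adcy3 level was not tested.

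Adcy1, which couples calcium to cAMP in neurons, was the 1 cyclase at an unadjusted p under 0.05. Clean air mice read 11.4, 8.52 and 9.72 RPKM, and those of the 120 min group 14.1, 11.9 and 15.3 RPKM, so that the groups did not overlap. The difference of 0.46 on the log2 scale did not pass adjustment (standard error 0.18; limma adjusted p = 0.448). Adcy4, the lowest cyclase at 1.66 ± 0.394 RPKM (SD, n = 9), read 1.16, 1.07 and 1.68 RPKM at 30 min and 1.88, 1.90 and 2.26 RPKM at 120 min. These did not overlap either, with a log2 difference of 0.49 between the exposed groups (standard error 0.24; limma adjusted p = 0.999).

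Regulatory subunits of PKA were the most abundant members. Prkar1a, the widely expressed type I alpha subunit, measured 281, 229.7 and 357 RPKM in clean air, then 281, 315 and 317 RPKM at 30 min and 304, 323 and 292 RPKM at 120 min. The highest and the lowest of the 9 values were both in clean air mice. Prkar1b, the neuronal type I beta subunit, averaged 215 ± 22.6 RPKM (SD, n = 9) and was below Prkar1a in 9 of 9 mice.

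The type II subunits Prkar2a and Prkar2b stood far lower, at 13.5 ± 3.29 and 9.39 ± 2.27 RPKM (SD, n = 9). Type I subunits thus held 94.0% to 96.9% of the summed regulatory RPKM in single mice. That share was 95.4% ± 1.43 in clean air, 96.0% ± 0.758 at 30 min and 95.6% ± 0.325 at 120 min (SD, n = 3 each), and the groups overlapped. Among the members whose promoter was searched, Prkar1a alone had a full cAMP response element. Its log2 difference was 0.09 at 30 min (95% interval -0.31 to 0.49) and 0.10 at 120 min (interval -0.30 to 0.50), with limma adjusted p of 0.928 and 0.899.

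The catalytic subunits Prkaca and Prkacb lay at nearly the same mean level. Prkaca measured 95.3, 58.2 and 87.9 RPKM in the control mice, 103, 68.8 and 72.8 RPKM at 30 min and 99.7, 65.4 and 78.2 RPKM at 120 min. In each group mouse 1 was the highest and mouse 2 the lowest. Its log2 difference from clean air was 0.03 at 30 min (limma adjusted p = 0.982) and 0.02 at 120 min (adjusted p = 0.988), with 95% intervals of -0.50 to 0.56 and -0.51 to 0.55, and both turned to -0.05 and -0.02 under median centring.

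In clean air mice Prkacb read 78.4, 55.7 and 70.5 RPKM, and at 30 min it read 78.7, 83.1 and 105 RPKM. All 3 of the 30 min mice lay above the highest control, though 30 min mouse 1 and clean air mouse 1 were close, and the log2 difference of 0.38 (standard error 0.17) had an unadjusted p of 0.0492 and a limma adjusted p of 0.824. Without clean air mouse 2, the lowest control, it was 0.245. At 120 min it read 76.6, 82.6 and 82.4 RPKM and overlapped clean air. The ratio of Prkaca to Prkacb was above 1 in all 3 clean air mice (1.05 to 1.25) and ran from 0.694 to 1.31 over all mice. Summed regulatory RPKM exceeded summed catalytic RPKM by 2.80 to 3.86 times.

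Among 17 phosphodiesterases, 3 held most of the signal. Pde1b (calcium and calmodulin stimulated), Pde4a (specific for cAMP) and Pde2a (stimulated by cGMP) averaged 83.7, 83.0 and 72.5 RPKM and together made up 68.2% to 76.4% of summed phosphodiesterase RPKM, Pde3a left out. Pde1b and Pde4a could not be ordered, since Pde1b was higher in 5 of 9 mice. The next was the cAMP-specific Pde4b at 27.0 ± 6.32 RPKM (SD, n = 9). Pde1b itself read 83.9, 86.9 and 67.9 RPKM in clean air, then 91.2, 88.9 and 83.1 RPKM at 30 min and 89.7, 85.1 and 76.7 RPKM at 120 min, and its groups overlapped.

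Summed over the phosphodiesterases without Pde3a, the level was 285 to 324 RPKM in clean air, 336 to 346 RPKM at 30 min and 344 to 359 RPKM at 120 min. Neither exposed group overlapped clean air in this sum, which is given as a description without a test. At 30 min the nearest values were close, 324 RPKM in clean air mouse 1 and 336 RPKM in 30 min mouse 1. Among all single genes tested, 11.4% did not overlap clean air at 30 min and 13.1% at 120 min. The sum was not recomputed with centred libraries. Of all 17 genes, 14 lay above clean air at 30 min (median log2 difference 0.25) and 14 at 120 min (median 0.29), where the medians of all genes tested were 0.08 and 0.03; with libraries centred on their medians the counts were 13 and 14. None of the 17 passed the limma test in any comparison. At 30 min 3 had an unadjusted p under 0.05 and at 120 min 2 did, where 5.92% and 9.57% of all genes did. Pde3a, whose reads were too few for a difference to be detectable, is in both counts of 14 and among the 3.

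Pde10a, which degrades both cyclic nucleotides and is known as an enzyme of striatal projection neurons, gave one of the clearest separations. It read 7.99, 6.32 and 7.24 RPKM in the control mice, 10.04, 10.15 and 10.12 RPKM at 30 min and 11.6, 10.7 and 9.80 RPKM at 120 min. All 6 exposed mice lay above all 3 control mice. The log2 difference was 0.47 at 30 min (standard error 0.16; unadjusted p = 0.0124; limma adjusted p = 0.749) and 0.55 at 120 min (standard error 0.16; unadjusted p = 0.00534; adjusted p = 0.342), so neither passed. Of 7 markers of striatum and cortex, 6 were found and none was at 0 throughout, and their sum ran from 29.4 to 35.3 RPKM in clean air, 32.1 to 35.8 RPKM at 30 min and 33.0 to 36.9 RPKM at 120 min. Most of that sum came from Ppp1r1b, which averaged 25.6 RPKM. Rgs9 ran from 3.77 to 4.66 RPKM in clean air, 3.56 to 5.20 RPKM at 30 min and 3.89 to 8.84 RPKM at 120 min. The rest averaged at most 1.78 RPKM each. The part of these markers in the Pde10a difference was not tested.

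The largest fitted difference of any member belonged to Pde3a, a phosphodiesterase inhibited by cGMP, and it rested on an estimated 11 counts. The table lists Pde3a at 5.60 RPKM in clean air mouse 1 and at 0 in mice 2 and 3, and at 6.67, 8.16 and 6.75 RPKM at 30 min. The fitted log2 difference of 2.74 (95% interval 0.09 to 5.38; limma adjusted p = 0.819) depends on the added 0.5 RPKM. Every nonzero value was a whole multiple, within 0.1, of the RPKM of 1 read on a length of 17 nt, which gives 1, 0 and 0 counted reads in clean air, 1, 4 and 2 at 30 min, and 1, 0 and 2 at 120 min. The length of 17 nt is the shortest that fits, so these counts are the smallest that fit. With so few reads no difference in Pde3a was detectable.

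Pde4dip (myomegalin) carries the phosphodiesterase name but is an anchoring protein of the centrosome and Golgi. It measured 31.4, 26.5 and 29.4 RPKM in clean air, then 39.3, 41.95 and 48.5 RPKM at 30 min and 44.7, 42.8 and 37.1 RPKM at 120 min. Neither exposed group overlapped clean air. It had the smallest p of all members at 30 min, with a log2 difference of 0.56 (standard error 0.15; unadjusted p = 0.00354; limma adjusted p = 0.697), and it stood 0.50 above clean air at 120 min (standard error 0.15; adjusted p = 0.347).

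Anchoring proteins spread over a wide range, led by Akap8l, a nuclear relative of Akap8 (AKAP95). Akap8l measured 60.2, 96.3 and 77.7 RPKM in the control mice, 55.03, 42.3 and 45.5 RPKM at 30 min and 54.6, 45.4 and 35.4 RPKM at 120 min. All 6 exposed mice lay below all 3 control mice, with clean air mouse 1 closest to them. The log2 difference was -0.69 at 30 min (standard error 0.21; unadjusted p = 0.00857; limma adjusted p = 0.749) and -0.78 at 120 min (standard error 0.21; unadjusted p = 0.00417; adjusted p = 0.339). Without clean air mouse 2, the highest library, it was -0.53 and -0.62.

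Its relative Akap8 also had lower levels in the exposed mice, without an unadjusted p under 0.05. It read 22.7, 28.2 and 22.4 RPKM in clean air, then 22.3, 17.4 and 21.8 RPKM at 30 min and 21.2, 19.8 and 15.9 RPKM at 120 min. Both exposed groups lay below clean air, with clean air mouse 3 and 30 min mouse 1 nearly equal. The log2 differences were -0.25 (limma adjusted p = 0.841) and -0.36 (adjusted p = 0.554), and the 30 min value was -0.14 without clean air mouse 2 and -0.14 without 30 min mouse 2.

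Akap6, which anchors PKA at the nuclear envelope, had higher levels in the exposed mice. It measured 12, 9.36 and 9.54 RPKM in the control mice, 15.5, 16.0 and 12.1 RPKM at 30 min and 15.1, 16.8 and 12.8 RPKM at 120 min. The exposed mice all lay above the controls, though 30 min mouse 3 barely exceeded clean air mouse 1. Log2 differences were 0.47 (standard error 0.18; limma adjusted p = 0.818) and 0.51 (standard error 0.18; adjusted p = 0.409).

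Akap10, an anchor for both types of regulatory subunit, did not overlap clean air at 30 min and did overlap it at 120 min. Its levels were 2.81, 3.62 and 2.5 RPKM in clean air, then 4.6, 5.83 and 4.66 RPKM at 30 min and 3.46, 4.89 and 2.71 RPKM at 120 min. The log2 difference from clean air was 0.68 at 30 min (standard error 0.24; limma adjusted p = 0.790) and 0.25 at 120 min (adjusted p = 0.792; 0.05 without 120 min mouse 2), and from 30 to 120 min it was -0.43 (adjusted p = 0.999). Its 30 and 120 min groups overlapped.

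The CREB group holds Creb1, Crem, Crebbp and the 3 coactivators. Leaving Creb1 aside, Crtc1, the coactivator that carries calcium and cAMP signals to CREB in neurons, had the highest level. It measured 51.5, 53.1 and 64.1 RPKM in the control mice, 53.0, 44.7 and 49.6 RPKM at 30 min and 61.0, 50.8 and 70.6 RPKM at 120 min. Crtc1 held 61.5% to 67.1% of the summed Crtc RPKM, with Crtc2 at 18.1 ± 1.39 and Crtc3 at 12.9 ± 1.72 RPKM (SD, n = 9). Crtc2 varied least of all members, with a coefficient of variation of 7.65%.

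All 3 coactivators overlapped between clean air and each exposed group. At 30 min their log2 differences from clean air were -0.19 for Crtc1, -0.07 for Crtc2 and 0.00 for Crtc3, with 95% intervals of -0.56 to 0.18, -0.38 to 0.25 and -0.39 to 0.39; without clean air mouse 3 that of Crtc1 was -0.09. At 120 min they were 0.11, 0.10 and 0.19, with limma adjusted p of 0.885, 0.875 and 0.791, and that of Crtc3 was 0.06 without clean air mouse 2.

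Creb1 itself read 10.8, 8.19 and 14.8 RPKM in clean air, then 10.3, 20.9 and 26.1 RPKM at 30 min and 16.1, 14.6 and 14.3 RPKM at 120 min. At 30 min mice 2 and 3 lay above every other library and mouse 1 lay below clean air mouse 1. The log2 difference was 0.68 (95% interval -0.01 to 1.36; unadjusted p = 0.0531; limma adjusted p = 0.824), and it was 0.43 at 120 min (adjusted p = 0.713). Single libraries moved these values: the 30 min difference was 0.41 without 30 min mouse 3 and 1.06 without 30 min mouse 1, and the 120 min difference was 0.23 without clean air mouse 2. Its values were whole multiples of 1 read on a scaling length of 88 nt, which gives 10, 16 and 39 reads in clean air, 8, 53 and 40 at 30 min, and 14, 31 and 9 at 120 min. A length of 88 nt, the shortest that fits, is a small piece of the gene, so the Creb1 level cannot be ranked against those of other genes.

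Crem is known as a gene induced by CREB that feeds back on it. It measured 3.77, 3.45 and 1.85 RPKM in the control mice, 3.59, 3.84 and 3.18 RPKM at 30 min and 4.28, 4.81 and 5.16 RPKM at 120 min. The 120 min mice lay above all 6 others, while 30 min overlapped clean air. The log2 difference was 0.24 at 30 min (standard error 0.24; limma adjusted p = 0.875) and 0.62 at 120 min (standard error 0.24; unadjusted p = 0.0281; adjusted p = 0.463), a fold of 1.54 that did not pass. Without clean air mouse 3, its lowest library, the 120 min value was 0.35.

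The reads estimated for Crem were few, again with the shortest length that fits. On its scaling length of 379 nt the values correspond to 12 to 44 reads in a library and 214 in all, with 15, 29 and 21 in clean air and 16, 44 and 14 at 120 min. The table gives 1 value per gene, so ICER cannot be separated from the longer Crem transcripts. Besides Pde3a, Creb1 and Crem, 4 more members resolved into whole reads within 0.1: Crebl2 (241 in all), Akap13 under its ENSMUSG00000078669 identifier (224), Akap12 (202) and Pde5a (194). For the other members no scaling length under 3000 nt gave whole reads with fewer than 100 in every library, and no counts are given.

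**Figure D2:**
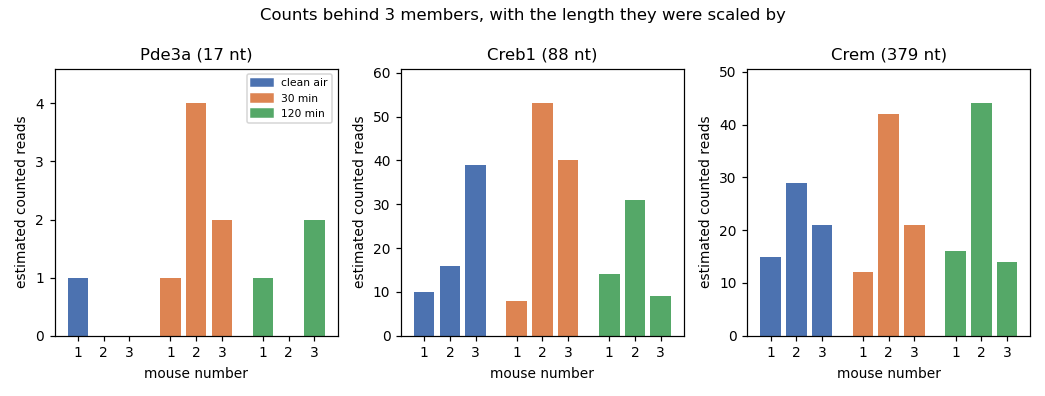
Estimated counted reads (vertical axis, from 0) for Pde3a, Creb1 and Crem in mice 1 to 3 of each group, with the length each was scaled by in the panel title. Pde3a never exceeds 4 reads, whereas Creb1 reaches 53 and Crem 44, and bars are not corrected for library depth.

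Crebbp, the acetyltransferase recruited by phosphorylated CREB, was the 1 member at an unadjusted p under 0.05 between the exposed groups. It measured 26.9, 18.7 and 22.5 RPKM in clean air, then 25.5, 28.9 and 23.9 RPKM at 30 min and 29.4, 36.7 and 37.6 RPKM at 120 min. The 120 min mice lay above all 6 others. The log2 difference at 120 min was 0.60 from clean air (standard error 0.18; unadjusted p = 0.00604; limma adjusted p = 0.345) and 0.39 from 30 min (standard error 0.18; unadjusted p = 0.0486; adjusted p = 0.999).

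The remaining 5 members share the CREB name. Crebl1 (Atf6b), a factor held in the endoplasmic reticulum membrane until it is cleaved, had the highest level at 44.6 ± 9.65 RPKM (SD, n = 9) and overlapped between all groups. Creb3l2, another factor of that membrane that serves secretion, measured 3.48, 2.05 and 2.62 RPKM in the control mice, 4.65, 3.07 and 2.39 RPKM at 30 min and 4.34, 5.51 and 4.82 RPKM at 120 min. Its 120 min mice lay above clean air, with a log2 difference of 0.76 (standard error 0.26; unadjusted p = 0.0137; limma adjusted p = 0.391). Creb3, the steadiest of the 5, ran from 27.6 to 35.4 RPKM.

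**Figure D3:**
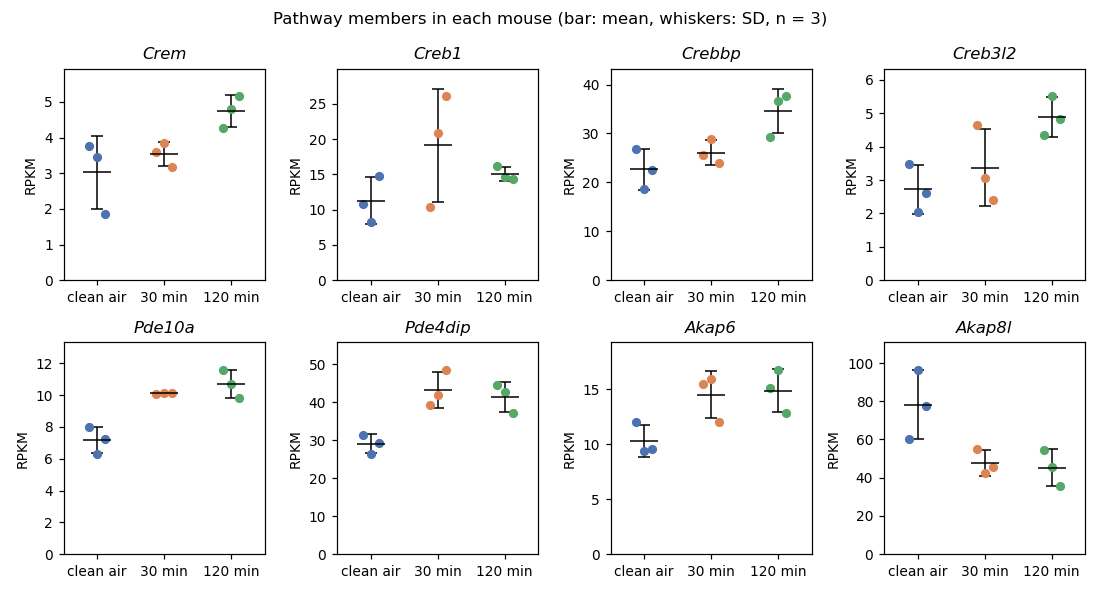
RPKM (vertical axes, from 0) of 8 pathway members in each mouse, with horizontal bars for group means and whiskers for the SD (n = 3). Crem and Crebbp are highest at 120 min, Pde10a, Pde4dip and Akap6 lie above clean air in both exposed groups, and Akap8l lies below it.

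Taking all members, 42 of 54 lay above clean air at 30 min (77.8%, against 61.8% of all genes tested) and 45 of 54 at 120 min (83.3%, against 53.9%). Their median log2 difference was 0.15 and 0.19, and that of all genes 0.08 and 0.03. Between 30 and 120 min, 26 of 54 lay above 0 and the median was -0.004. The shares of members above clean air were lower under another scaling and without 1 library. With each library centred on its median, 63% of members lay above clean air at 30 min and 75.9% at 120 min. The shares of all genes were then lower too, at 49.9% and 48.1%. Without clean air mouse 2 the shares of members were 60.4% and 69.8%, against 58.4% and 55.1% of all genes. Clean air mouse 2 was the lowest of 9 libraries in 22 members (40.7%, against 18.2% of all genes), and 120 min mouse 3 was the highest in 13 (24.1%, against 13.9%).

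Members at an unadjusted p under 0.05 numbered 8 at 30 min (14.8%), where 5.92% of all genes reached it. Of these 7 were higher (3.62% of all genes were) and 1 was lower (2.30%). The 7 include Pde3a, whose reads were too few for a difference to be detectable. At 120 min they numbered 9 (16.7%, against 9.57% of all genes), with 8 higher (5.72%) and 1 lower (3.85%). Between the exposed groups the 1 member was higher (1.85% of members; 3.36% of all genes reached it, 1.38% higher and 1.99% lower).

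Groups did not overlap for 9 members at 30 min (16.7%, against 11.4% of all genes), 7 of them higher (7.29%) and 2 lower (4.08%). Pde3a, with its few reads, is among the 7. At 120 min 10 members did not overlap clean air (18.5%, against 13.1%), 8 higher (7.86%) and 2 lower (5.27%). Between the exposed groups 7 did not overlap (13%, against 10.6%), 6 higher (4.99%) and 1 lower (5.66%). The count of 8 members at an unadjusted p under 0.05 at 30 min was 5 without clean air mouse 2, 4 without clean air mouse 3, 4 without 30 min mouse 2 and 13 without clean air mouse 1. The share of all genes, 5.92% with all mice in the fit, was 7.27%, 4.59%, 3.11% and 9.92% in the same order. Without clean air mouse 2 it rose while the count of members fell.

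The intervals show the precision of these comparisons. The 95% interval of the log2 difference lay wholly between -1 and 1, a change under 2-fold, for 44 members at 30 min, 41 at 120 min and 46 between the exposed groups. For those members a change of 2-fold or more lay outside the interval; for the others it did not. The median standard error of a member was 0.22.

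**Figure D4:**
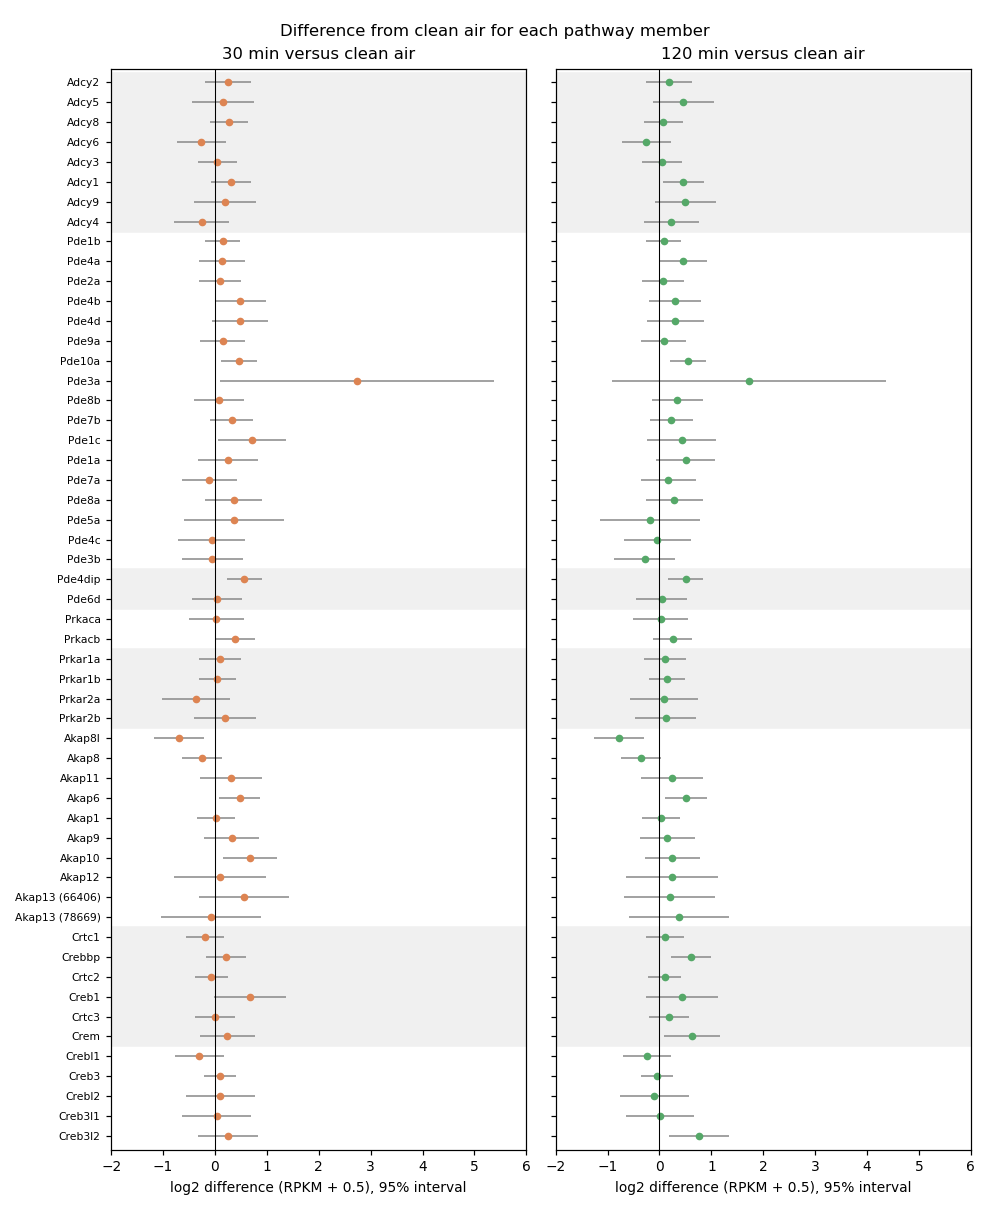
Log2 difference from clean air on the log2(RPKM + 0.5) scale (horizontal axis) for each of the 54 members at 30 min and at 120 min, with bars for the 95% interval and shading by role. Most points lie slightly to the right of 0, Akap8l lies at -0.69 and -0.78, and the interval of Pde3a is the widest.

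The other genes of the pathway, from receptors to the partners of CREB, gave no call either. Of 20 tested receptors and G proteins upstream of the cyclases, 0 passed the limma test in any comparison, with 0, 4 and 1 at an unadjusted p under 0.05 at 30 min, at 120 min and between them. Of all genes, 5.92%, 9.57% and 3.36% reached that level in turn, and 0.141%, 0.0861% and 0.0782% passed the test. Their median log2 difference from clean air was 0.10 at 30 min and 0.20 at 120 min. Of 13 other cAMP effectors and PKA inhibitors, 0 passed (1, 2 and 1 unadjusted), with medians of 0.03 and 0.03. Of 31 kinases, phosphatases and partners that act on CREB or CRTC, 0 passed (3, 5 and 2 unadjusted), with medians of 0.10 and 0.09. The largest value at 30 min among these was that of Snf1lk (Sik1), a kinase that holds CRTC in the cytoplasm and is itself a CREB target, with 29.6 ± 0.526 RPKM at 30 min against 14.4 ± 4.35 RPKM for the controls (SD, n = 3), a log2 difference of 1.05 with a limma adjusted p of 0.154.

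CREB targets supplied the calls. Their list was drawn up from genes known to be induced by cAMP or activity, so these calls are not independent evidence. Of 31 tested, 11 rose at 30 min and 0 fell, with a list median of 0.78, and 3 (Fosb, Nr4a2 and Nr4a3) were higher than clean air at 120 min. From 30 to 120 min 7 of the 31 fell and 0 rose. Btg2, with the full element shown above, rose from 5.46 ± 0.600 to 38.9 ± 4.95 RPKM at 30 min (SD, n = 3; log2 difference 2.72; limma adjusted p = 6.69e-05) and was 5.84 ± 0.579 RPKM at 120 min. Dusp1 rose from 14.2 ± 3.41 to 56.6 ± 7.49 RPKM at 30 min (log2 difference 1.97; adjusted p = 0.00062). The other tested targets with the full element, Cartpt, Pcsk1, Sst and Th, were not called in any comparison. Of 9 called targets with a promoter, 2 held the full element (22.2%), against 25% of the 24 tested targets with a promoter. In the same libraries Prkar1a, which carries the same 8 bases, had the log2 difference of 0.09 given above. Whether that differs from Btg2 and Dusp1 was not tested.

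**Figure D5:**
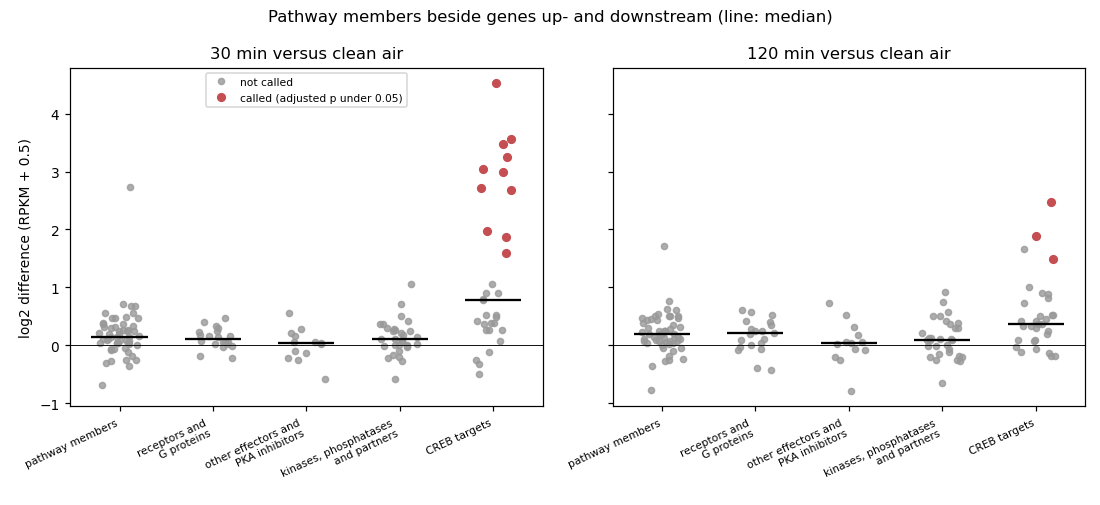
Log2 difference from clean air on the log2(RPKM + 0.5) scale (vertical axis) at 30 min and 120 min for each tested gene of 5 lists, with a line at the list median and red points for genes with an adjusted p under 0.05. Red points occur in the CREB target list alone, 11 at 30 min and 3 at 120 min, while the pathway members gather near 0 with Pde3a apart. The CREB target list was drawn up from genes known to be induced by cAMP or activity.

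Depth and tissue make-up frame these values. The depth recovered from the spacing of RPKM values ran from 7.16 megareads in 120 min mouse 3 to 29.9 megareads in clean air mouse 3, so that 3 counts on 1 kb correspond to 0.1004 to 0.419 RPKM. Such floors cover counting error only. Markers of mitral, granule and periglomerular cells of the bulb were present in every library. Of 49 tested markers in 13 lists, 0 passed the limma test against clean air. Among all genes 0.141% passed at 30 min and 0.0861% at 120 min. An unadjusted p under 0.05 was reached by 6 at 30 min (5.92% of all genes reached it) and by 6 at 120 min (9.57% of all genes). At 120 min 3 of these were mitral and tufted cell markers with higher levels than in clean air, as most pathway members had. Tbx21 averaged 17.5 and 24.98 RPKM in clean air and at 120 min (log2 difference 0.51; limma adjusted p = 0.364). Eomes averaged 56.3 and 73.85 RPKM (0.41; adjusted p = 0.497) and Reln 33.2 and 58.9 RPKM (0.90; adjusted p = 0.345). The other 2 markers of these cells, Slc17a7 and Doc2g, differed from clean air by -0.03 and -0.27. The sum of all 5, most of it from Slc17a7 and Doc2g, ran from 917 to 1350.1 RPKM in clean air, 889 to 1032 RPKM at 30 min and 995 to 1053 RPKM at 120 min. The summed level of 2 red blood cell genes ran from 38 to 145 RPKM in clean air, 153 to 197 RPKM at 30 min and 46.3 to 189 RPKM at 120 min, and the part of either in the differences here was not tested.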

How the data were processed

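Alignment used Bowtie and the build mm9, per the submitters' processing notes. The sources used here do not give its version, the annotation, the counting rule or any use of strand. RPKM values made and deposited by the authors, for 27497 genes in 9 libraries, were taken as they stand. The 12780 genes averaging 1 RPKM or more were tested on log2(RPKM + 0.5), a scale that understates changes of low genes, with limma 3.58.1 in R 4.3.3 (1 fit to all 9 libraries, eBayes with a trend, two-sided). Calls were made at 0.05 after Benjamini-Hochberg adjustment over all genes tested. The script was tested on simulated data.

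The members and gene lists were chosen with earlier results of these data known. Named members were the highest of each role, the 5 smallest p-values of each comparison and 10 picked for their role; others were named after their values were seen. Depth was estimated from RNAs under 200 nt of GENCODE M21, whose values were whole multiples of 1 read, within 0.05, for 86.8% to 93.0% of values when lengths were shortened by 34 nt. No mm9 coordinates are given; promoter positions are those of RefSeq on GRCm38.p6. Alternatives covered the pseudocount, filter, scaling, mouse number as a block, trend, groups in the fit and each mouse left out.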

Additional observations from a re-analysis of the deposited data

How the results depend on the processing

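Under 18 alternatives per comparison, 0 members were called in any of 54 pairs of comparison and alternative. Most alternatives are 1 fit read for all 3 comparisons. The lowest limma adjusted p of a member was 0.331 (30 min), 0.169 (120 min) and 0.723 (120 against 30 min). Of 1068 recomputed differences of 20 named members, 1029 kept their direction and side of the threshold and 39 changed sign, all with a reported size of at most 0.243. Under median centring the 30 min differences were -0.051 for Prkaca, -0.076 for Crtc3 and -0.035 for Adcy3, and under quantile normalization -0.068 for Crtc3 and -0.026 for Adcy3. At 120 min Prkaca was -0.021 and -0.009 under these scalings, and 0.030 against 30 min under median centring. The count of all genes called at 120 min against clean air, 11, was 7 with a filter at 5 RPKM, 2 with only both groups in the fit, and 0 to 11 with 1 mouse left out, being 0 without clean air mouse 2 and 0 without 120 min mouse 3. The cause was not tested.

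Leaving out 1 mouse at a time turned the sign of small differences. At 30 min the ranges were -0.028 to 0.403 for Crem, -0.129 to 0.075 for Crtc3, -0.188 to 0.166 for Prkaca, -0.08 to 0.138 for Adcy3 and -0.062 to 0.256 for Prkar1a. At 120 min they were -0.195 to 0.165 for Prkaca, -0.077 to 0.14 for Adcy3, -0.05 to 0.268 for Prkar1a, -0.008 to 0.228 for Crtc1 and -0.03 to 0.147 for Pde1b. Between the exposed groups they were -0.207 to 0.036 for Adcy2, -0.061 to 0.103 for Adcy3, -0.085 to 0.139 for Akap6, -0.236 to 0.073 for Akap8l, -0.623 to 0.026 for Creb1, -0.123 to 0.027 for Pde4dip, -0.165 to 0.174 for Prkaca and -0.045 to 0.045 for Prkar1a.

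Mouse numbers are those of the sample titles and are shared between groups by label alone. In the submitters' library names only mouse 1 has the same number in all 3 groups. Clean air mice 2 and 3 are numbered there otherwise than mice 2 and 3 of the exposed groups. Same-numbered mice deviated together at correlations of 0.223 to 0.319 (mouse 1), 0.383 to 0.444 (mouse 2) and 0.081 to 0.147 (mouse 3), and 9 of 9 libraries correlated best with their own number, a hint from the data and not the design. With the number as a replicate block, 22, 11 and 10 genes were called in the 3 comparisons against 18, 11 and 10, with 0 members, and 11, 12 and 2 members had an unadjusted p under 0.05 against 8, 9 and 1, while the share of all genes was 10.9%, 14.9% and 6.68% against 5.92%, 9.57% and 3.36%. Depth limits low members: Pde3a rested on an estimated 11 reads, the fewest that fit.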
